A study of Mus musculus with 18 samples.

Results

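Lung iECs were compared with lung control fibroblasts in 6 of the 18 libraries of a bulk RNA-seq study of cultured mouse cells, 3 libraries per group, all at day 7. The members were every gene with enough counts to be tested, 14864 of the 35727 gene IDs listed. iEC is the label's own term, not spelled out there, and in this field stands for induced endothelial cells. The titles call the same libraries SEG, which is not explained either. Lung ECs, labelled endothelial cells, heart iECs and heart control fibroblasts, 3 libraries each at day 7, served for comparison. By its title the series is about how endothelial cells gain the identity of their organ. All groups were grown in EGM2, an endothelial growth medium, so the fibroblasts had no fibroblast medium of their own. The labels name no strain, age, vector or factor, do not say how cells were sorted, and do not say whether replicates came from separate animals or cultures, so p-values measure only the spread between these libraries, which may be technical.

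Endothelial cells line blood vessels and are held together by VE-cadherin (Cdh5), receive growth signals through the VEGF receptor Kdr and the Tie receptors Tie1 and Tek, and differ between arteries, veins, capillaries and lymphatics. Fibroblasts make the interstitial matrix, above all fibrillar collagen, which is folded and hydroxylated in the endoplasmic reticulum (ER) and crosslinked outside the cell by lysyl oxidases. Sox17, of the SoxF family, and Erg, of the ETS family, are transcription factors of endothelial cells, and Sox17 is known for its role in arteries.

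The 6 libraries held 17747632 to 22603749 estimated counts and 16122 to 17291 genes with a count. Levels are given in CPM, the usual counts relative to library size, here with sizes scaled by TMM, and can be compared between groups for a gene but not between genes, since they are not divided by length. Lung iEC replicate 3 and lung fibroblast replicate 1 stood apart from the other libraries of their groups: chi-squared per degree of freedom of the counts was 9.96 between iEC replicates 1 and 2 against 25.4 and 45.0 with replicate 3, and 7.31 between fibroblast replicates 2 and 3 against 52.0 and 37.8 with replicate 1. List counts that move by over 1.5 times without either are also given without it.

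In the check of the labels, 9 of 10 defining endothelial markers (Cdh5, Pecam1, Tek, Tie1, Kdr, Emcn, Vwf, Esam and Icam2, but not Cldn5) were above their fibroblast level in lung iECs, and 9 of the 10 were below their lung EC level. All 9 fibroblast markers (Col1a1, Col1a2, Col3a1, Pdgfra, Dcn, Lum, Dpt, Mfap4 and Thy1) were below their fibroblast level, but only Lum, Dpt and Mfap4 averaged under 1 CPM in lung iECs. The lung iEC libraries thus held endothelial and fibroblast transcripts side by side. So did the lung EC libraries, where only 2 of the 9 fibroblast markers averaged under 1 CPM. In bulk RNA, a mixture of converted and unconverted cells cannot be told apart from cells that each hold both, nor fewer cells of a type from less RNA per cell.

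A set of 4 genes that stood at no count in every lung fibroblast library and above 10 CPM on average in lung iECs are shown by their promoters, 250 bases before to 50 bases after a RefSeq start site (GRCm38.p6), as examples of genes detected only on the iEC side of the comparison. Of the 12 genes with the largest increases (below), 10 had an entry in the promoter table, and the first entry of the first 4 of these, in order of fitted log2 change, is printed. The rule did not ask for genes with no fibroblast count, but ranking by fitted log2 change favours them. With no count in a group, the fitted change rests on a small count added in the fit and has no stable size. That these 4 all lacked fibroblast counts is thus largely a product of the ranking and not a separate finding. Capitals mark matches on either strand to AGGAAG or CGGAAG, forms of the ETS core, and to CATTGT or ATTGTT, forms of the SOX core, where the SOX forms can overlap each other. Tmprss5 encodes a transmembrane serine protease, Havcr1 a phosphatidylserine receptor known as a kidney injury marker, Magix a PDZ domain protein and Lpo lactoperoxidase. The windows printed lie at chr9:49102478-49102777 (plus strand), chr11:46739973-46740272 (plus strand), chrX:7681202-7681501 (minus strand) and chr11:87826065-87826364 (minus strand). There were 2 entries for Tmprss5, 3 for Havcr1, 2 for Magix and 1 for Lpo. Which start site these cells used is not known.
Tmprss5: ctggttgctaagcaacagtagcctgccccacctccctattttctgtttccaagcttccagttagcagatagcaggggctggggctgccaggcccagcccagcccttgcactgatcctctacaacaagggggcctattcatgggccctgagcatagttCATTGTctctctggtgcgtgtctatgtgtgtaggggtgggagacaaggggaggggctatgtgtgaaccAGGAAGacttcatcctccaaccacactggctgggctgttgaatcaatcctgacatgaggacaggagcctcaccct
Havcr1: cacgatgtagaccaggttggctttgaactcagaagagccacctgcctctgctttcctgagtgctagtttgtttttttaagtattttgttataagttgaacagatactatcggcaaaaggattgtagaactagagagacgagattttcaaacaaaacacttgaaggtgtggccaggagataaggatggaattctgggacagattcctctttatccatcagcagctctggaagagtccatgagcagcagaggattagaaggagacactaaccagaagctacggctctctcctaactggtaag
Magix: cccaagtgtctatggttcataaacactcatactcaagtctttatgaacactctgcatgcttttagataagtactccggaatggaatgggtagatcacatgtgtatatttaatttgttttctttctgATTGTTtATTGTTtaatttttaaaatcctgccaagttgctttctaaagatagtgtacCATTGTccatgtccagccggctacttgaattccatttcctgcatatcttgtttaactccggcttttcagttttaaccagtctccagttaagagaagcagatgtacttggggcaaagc
Lpo: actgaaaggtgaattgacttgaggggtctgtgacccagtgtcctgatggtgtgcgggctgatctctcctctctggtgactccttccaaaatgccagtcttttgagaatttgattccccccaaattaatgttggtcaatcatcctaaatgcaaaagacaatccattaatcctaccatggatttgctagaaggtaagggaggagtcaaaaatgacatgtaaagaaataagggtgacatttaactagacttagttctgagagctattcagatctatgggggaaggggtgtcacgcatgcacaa
The Tmprss5 window held 1 ETS and 1 SOX match, the Magix window 3 SOX matches and no ETS match, and the windows of Havcr1 and Lpo held neither. Over all 32851 promoters listed, 46.5% held at least 1 of the ETS forms, 18.7% at least 1 of the SOX forms and 7.84% both kinds. No form was common to all 4 windows, and the absence of letters says only that they are not in these 300 bases.

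Tmprss5 (ENSMUSG00000032268) stood at 56.8, 58.0 and 62.0 CPM in lung iECs, from 1197, 1350 and 1286 counts, and at no count in any lung fibroblast library. Against a floor of 3 counts over the 3 fibroblast libraries (0.0496 CPM) it was at least 1188-fold higher. Havcr1 (ENSMUSG00000040405) stood at 24.9, 28.4 and 28.5 CPM in lung iECs, Magix (ENSMUSG00000031147) at 23.2, 28.3 and 21.6 CPM and Lpo (ENSMUSG00000009356) at 12.2, 11.04 and 18.6 CPM, against no count in lung fibroblasts for each, at least 549.5-fold, 492-fold and 281-fold higher. Lung iECs had 13.0, 14.95 and 12.8 CPM of the serpin gene Serpinb12, at least 274-fold above the fibroblast floor. All 5 were near 0 in lung ECs, which had no count for Havcr1 and Lpo and averaged 0.0553, 0.0576 and 0.254 CPM for Tmprss5, Magix and Serpinb12. In heart iECs Tmprss5 averaged 28.3, Havcr1 9.89, Magix 78.2 and Lpo 11.2 CPM, but Serpinb12 only 0.299 CPM.

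In all, 298 genes had no count in any lung fibroblast library and a count in all 3 lung iEC libraries, 11 of them at 5 CPM or more. Only 56 genes had the opposite pattern, and none of them reached 5 CPM. After the 5 genes above came Sp5, a zinc finger transcription factor and Wnt target, at 7.59, 6.32 and 12.9 CPM in lung iECs, and Tacr1, the receptor of substance P, at 7.87, 8.94 and 9.55 CPM, each at least 177-fold above the fibroblast floor. Sp5 averaged 3.02 CPM in lung ECs and Tacr1 0.0732 CPM. Among genes with no count in lung iECs, Agtr2, the type 2 angiotensin receptor, stood at 0.802, 2.06 and 2.17 CPM in lung fibroblasts and was at least 36.4-fold lower in lung iECs (floor 0.0461 CPM), Ripply1 at least 31.9-fold and Il17re at least 22.2-fold lower. The other genes of this kind were Fam205a3, Ly6c2, Serpina3k, Ear1 and Gdf2, which encodes the endothelial ligand BMP9, with fibroblast means of 0.584 to 2.12 CPM. Ly6c2 and Serpina3k belong to families of near-identical copies, so their reads are uncertain. These floors speak to counting error alone, as PCR copies were not told apart by molecular identifiers.

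Across all genes, 7518 of 14864 (50.6%) differed between lung iECs and lung fibroblasts at an adjusted p under 0.05 in edgeR's quasi-likelihood test, 3850 higher (25.9%) and 3668 lower (24.7%). The shares of 25.9% and 24.7% are the background for every list count against lung fibroblasts below. Values of the 3 lung iEC libraries lay wholly above those of the 3 fibroblast libraries for 27.9% of genes and wholly below for 26.6%. At least 2-fold by the fitted change were 1739 of the higher and 1211 of the lower genes, and at least 8-fold 485 and 246, counts that include genes at no count in a group, whose fitted fold is not stable. When each of the 6 libraries was left out in turn, 3019 higher and 2798 lower calls were kept every time. With lung iEC replicate 3 and lung fibroblast replicate 1 both left out, 3554 genes were higher and 3393 lower. Scaling decides the balance between directions: 51.2% of calls were higher under TMM, but 67.5% (5296 higher and 2550 lower) on library totals alone, where the median log2 change of all genes moved to 0.16, so all changes below are relative to a median of 0 under TMM.

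Sox17 (ENSMUSG00000025902; chromosome 1, 4490931 to 4497354 of GRCm38, minus strand) stood at 433, 429.8 and 562 CPM in lung iECs, against 0.0573, 0.0958 and 0.226 CPM in lung fibroblasts. Erg (ENSMUSG00000040732) lies on the minus strand at chromosome 16, 95359169 to 95586593 and had 959, 956 and 1187 CPM in lung iECs, against 0.172, 1.05 and 0.406 CPM in lung fibroblasts. Every lung iEC library was far above every fibroblast library for both, and replicate 3 was the highest. Both genes also stood above lung ECs, at 13.4, 12.6 and 16.7 CPM for Sox17 and 88.1, 80.2 and 88.3 CPM for Erg, with log2 differences of lung iECs over lung ECs of 5.06 ± 0.149 and 3.60 ± 0.175 (SE, edgeR adjusted p = 1.84e-14 and 4.34e-11). The deposited table has a single value for each gene, so transcripts from a native locus and from an introduced copy, if any, cannot be told apart. Of the other SoxF members, Sox7 averaged 1.32 CPM in lung iECs, 0.995 in lung fibroblasts and 40.7 in lung ECs, and Sox18 0.199, 0.138 and 37.5 CPM, neither called between lung iECs and lung fibroblasts.

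The 12 genes with the largest increases that also met the other criteria (at least 10 CPM, groups not overlapping, call kept with each library left out) were mostly not endothelial genes. Besides Sox17, Erg and the 5 genes with no fibroblast count, they were Slc35f1, a solute carrier family gene, Sphkap, which encodes an anchor of protein kinase A, Clvs1, a lipid-binding Sec14 protein gene, Tecrl, which encodes an enoyl-CoA reductase-like protein, and Plekhs1, a pleckstrin homology domain gene. Sphkap stood at 156, 182 and 177 CPM in lung iECs, against 0.115, 0.192 and 0.0451 CPM in lung fibroblasts. Slc35f1 stood at 33.5, 43.2 and 27.2 CPM in lung iECs and averaged 0.0150 CPM in lung fibroblasts, too few counts for a stable fold. Of the 12, all were called above lung ECs as well, and 9 averaged under 1 CPM there, as the plot by library shows.

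**Figure D1:**
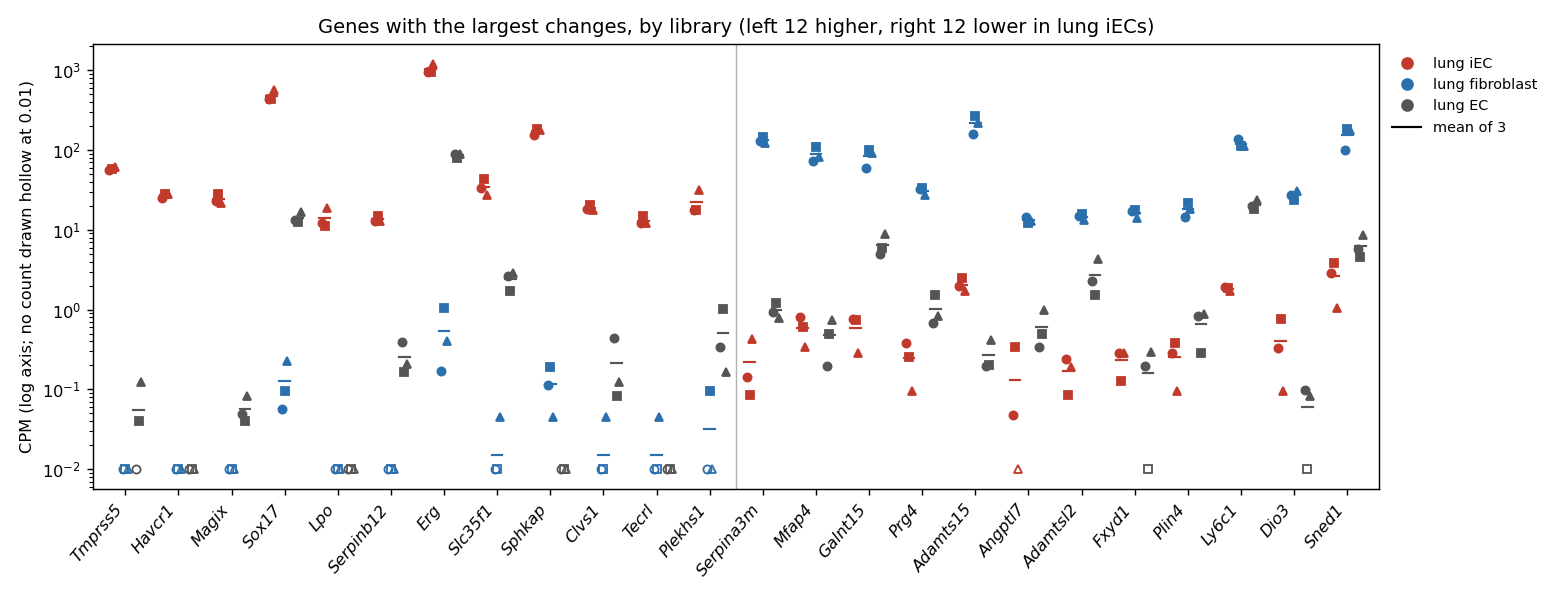
CPM (log axis) of the 24 genes with the largest changes, 1 point per library (circle, square and triangle for replicates 1, 2 and 3), for lung iECs (red), lung fibroblasts (blue) and lung ECs (grey); bars are means of 3 and hollow points at 0.01 stand for no count. The left 12 genes are higher and the right 12 lower in lung iECs, and most of the left 12 are near or at no count in lung ECs.

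Among the 12 largest decreases were genes of matrix and of secreted proteins. Mfap4, a protein of elastic microfibrils, stood at 0.806, 0.602 and 0.338 CPM in lung iECs, against 72.0, 109 and 82.8 CPM in lung fibroblasts. Adamts15, a protease that cuts proteoglycans, stood at 1.99, 2.49 and 1.69 CPM in lung iECs, against 160.4, 269 and 219 CPM in lung fibroblasts. Prg4, the lubricin gene, averaged 0.245 ± 0.142 CPM in lung iECs and 31.0 ± 3.37 CPM in lung fibroblasts (SD, n = 3 each), and Sned1, another matrix protein gene, 2.61 ± 1.42 and 153 ± 47.5 CPM. The lung iEC libraries were below the fibroblast libraries in every case. Log2 changes were −7.22 ± 0.32 for Mfap4, −6.70 ± 0.35 for Adamts15, −6.94 ± 0.268 for Prg4 and −5.86 ± 0.402 for Sned1 (edgeR adjusted p = 5.58e-11, 9.01e-10, 6.93e-13 and 2.74e-08). The others were Galnt15, a glycosyltransferase of mucin-type glycans, Angptl7, Adamtsl2, which binds latent TGF-beta complexes, Fxyd1, a regulator of the sodium pump, the lipid droplet gene Plin4, the thyroid hormone-inactivating deiodinase Dio3, and Serpina3m and Ly6c1, whose reads may be shared with close paralogs.

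By difference in mean level, the leading increases were Thbs1, which encodes the anti-angiogenic matrix protein thrombospondin 1, the smooth muscle actin gene Acta2, Lyz2 (lysozyme, a macrophage product), the lysosomal protease Ctsd, the actin-binding Tmsb4x and Fbln5, a fibulin of elastic fibres. Thbs1 stood at 6688, 6385 and 7623 CPM in lung iECs, against 2006, 2026 and 2411 CPM in lung fibroblasts, and lung ECs averaged 6432 CPM. Fbln5 stood at 1588, 1851 and 1491 CPM in lung iECs, against 174, 175 and 193 CPM in lung fibroblasts, and only 102 CPM in lung ECs. Neither gene overlapped between lung iECs and fibroblasts, but against lung ECs the test called Fbln5 (4.01 ± 0.168, edgeR adjusted p = 4.01e-12) and not Thbs1 (0.10 ± 0.11, adjusted p = 0.484). The leading decreases were Col3a1, Col1a1, Col1a2, Mgp (matrix Gla protein, an inhibitor of calcification and of BMP), Lox (lysyl oxidase) and Serpina3n. Mgp stood at 1525, 1322 and 774 CPM in lung iECs, against 8994, 6673 and 7169 CPM in lung fibroblasts. Lox stood at 1624, 1534 and 1271 CPM in lung iECs, against 6278, 7597 and 7907 CPM in lung fibroblasts.

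Most endothelial receptors and surface proteins rose, but to uneven levels. Of 38 tested members 27 were higher in lung iECs and 2 lower (background 25.9% and 24.7%), with a median log2 change of 2.45 against 0 over all genes. Emcn, an endothelial sialomucin, stood at 203, 237 and 244 CPM in lung iECs, against 0.974, 0.623 and 1.04 CPM in lung fibroblasts. Cdh5 stood at 444, 454 and 498 CPM in lung iECs, against 2.23, 3.88 and 3.39 CPM in lung fibroblasts. Myct1 averaged 24.6 CPM in lung iECs and 0.11 in lung fibroblasts, Ptprb, the phosphatase of VE-cadherin and Tek, 100.3 and 1.98 CPM, Adgrl4 29.1 and 0.747 CPM and Robo4 15.3 and 0.407 CPM. All of these were without overlap between the groups. Pecam1, the junction protein CD31, stood at 7.78, 7.52 and 6.08 CPM in lung iECs, against 1.72, 2.30 and 1.72 CPM in lung fibroblasts, a log2 change of 1.89 ± 0.1247, yet at 583, 546 and 557 CPM in lung ECs. Vwf, the von Willebrand factor gene, was likewise called (4.41, 3.65 and 3.14 CPM in lung iECs, 1.78, 2.25 and 1.62 in lung fibroblasts) and averaged 195 CPM in lung ECs.

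Several genes high in lung ECs did not pass the test against lung fibroblasts. Cldn5, the endothelial claudin, averaged 0.416 CPM in lung iECs, 0.452 in lung fibroblasts and 54.8 in lung ECs, Nos3, the endothelial nitric oxide synthase, 0.398, 0.449 and 8.52 CPM, and Mmrn2, a ligand of CD93, 0.357, 0.292 and 175 CPM. The members that fell were Plvap and Cd34. Plvap, of the diaphragms of fenestrae and caveolae, stood at 0.901, 0.215 and 0.338 CPM in lung iECs, against 2.75, 1.25 and 1.67 CPM in lung fibroblasts. Cd34, a sialomucin of endothelium and of many fibroblasts, stood at 2.04, 1.98 and 1.93 CPM in lung iECs, against 26.2, 22.9 and 21.9 CPM in lung fibroblasts. In the test against lung ECs (45.2% of all genes called, 22.2% higher and 23.0% lower in lung iECs), 29 of the 38 were lower in lung iECs and 5 higher, with a median of −2.09. The higher ones included Kdr at 254, 296 and 265 CPM in lung iECs, against 6.13, 9.73 and 8.85 CPM in lung fibroblasts and 77.9 CPM in lung ECs.

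**Figure D2:**
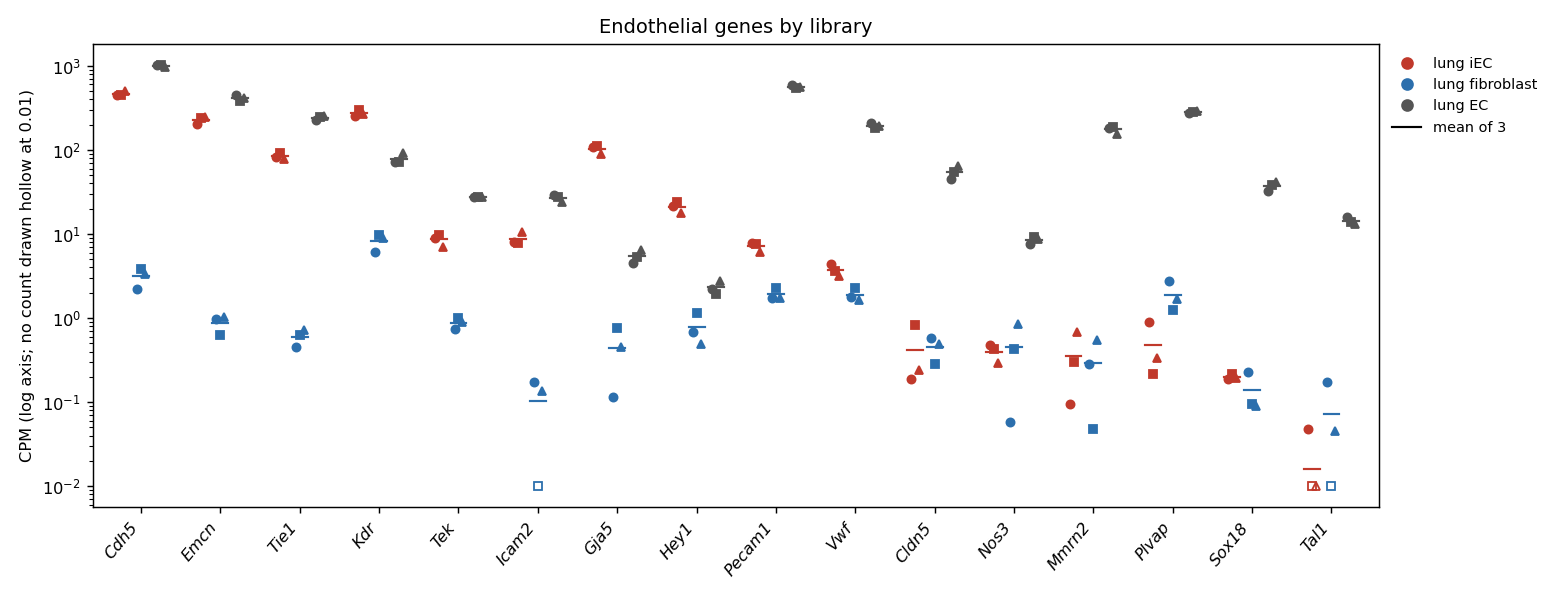
CPM (log axis) of endothelial genes, 1 point per library (circle, square and triangle for replicates 1, 2 and 3), for lung iECs (red), lung fibroblasts (blue) and lung ECs (grey), with means of 3 as bars and hollow points at 0.01 for no count. Kdr, Gja5 and Hey1 stood above lung ECs, Cdh5, Emcn and Tie1 between the groups, and Cldn5, Nos3, Mmrn2, Sox18 and Tal1 were not called between lung iECs and lung fibroblasts.

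Of 26 endothelial transcription factors 13 were higher and 5 lower (median 0.70). After Sox17 and Erg came Prdm1 (19.9 CPM in lung iECs, 0.477 in lung fibroblasts), Bcl6b (28.8 and 1.09 CPM), Hhex (9.35 and 0.627 CPM) and Lmo2 (38.4 and 2.99 CPM). Epas1, the hypoxia factor HIF-2 alpha, stood at 305, 298 and 253 CPM in lung iECs, against 24.3, 37.5 and 32.2 CPM in lung fibroblasts. Among ETS genes Fli1 rose by 1.82 ± 0.141 and Ets1 by 1.39 ± 0.112 on the log2 scale (edgeR adjusted p = 5e-09 and 8.03e-09). The shear-stress factors Klf2 and Klf4 fell, with Klf4 at 46.5, 45.9 and 34.2 CPM in lung iECs, against 121, 119.7 and 132 CPM in lung fibroblasts, as did Nr2f2, the venous factor COUP-TFII, at 77.7, 74.4 and 74.0 CPM in lung iECs, against 150.4, 145 and 147 CPM in lung fibroblasts. Tal1, a haemato-endothelial factor, averaged 0.0158 CPM in lung iECs and 0.0723 in lung fibroblasts against 14.3 in lung ECs, and Meox1 0.41, 0.225 and 29.3 CPM, neither called between lung iECs and lung fibroblasts.

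Of 26 arterial genes tested, 21 were higher and 4 lower (median 2.20). Gja5, the gap junction protein connexin 40 of arteries, stood at 108, 112 and 88.8 CPM in lung iECs, against 0.115, 0.767 and 0.451 CPM in lung fibroblasts. Hey1, a Notch target, stood at 21.2, 24.2 and 17.8 CPM in lung iECs, against 0.687, 1.15 and 0.497 CPM in lung fibroblasts. Both exceeded lung ECs, at 5.41 and 2.33 CPM (log2 differences 4.24 ± 0.21 and 3.18 ± 0.273, edgeR adjusted p = 1.24e-10 and 9.74e-08). Sema3g (11.9 CPM in lung iECs, 0.314 in lung fibroblasts), the Notch ligand Dll4 (8.25 and 0.231 CPM) and endothelin 1, Edn1 (281 and 25.04 CPM) also rose. Those that fell were Mgp, Fbln2, Vegfc and Stmn2. Of 26 genes of the Notch pathway, a contact signal used in arterial fate, 15 were higher and 5 lower. The ligands Dll4 and Jag1 and the receptors Notch1, Notch4 and Notch3 rose, with Notch1 at 91.8, 92.6 and 92.3 CPM in lung iECs, against 14.9, 22.0 and 15.8 CPM in lung fibroblasts, and so did the targets Hey1, Hey2, Heyl and Hes1. The coactivators Maml2 and Maml3 fell (log2 changes −0.66 ± 0.137 and −0.84 ± 0.168). The count of lower Notch genes was 3 without lung fibroblast replicate 2, 3 without lung fibroblast replicate 3 and 8 with lung iEC replicate 3 and lung fibroblast replicate 1 left out.

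Of 16 venous genes 8 were higher and 3 lower, and of 14 lymphatic genes 8 and 5. Several of these rises ended far below lung EC levels: Lyve1, the hyaluronan receptor, averaged 14.5 CPM in lung iECs, 4.05 in lung fibroblasts and 403 in lung ECs, and Reln 0.984, 0.275 and 190.1 CPM. Flt4, the VEGF-C receptor, stood at 87.2, 90.1 and 115 CPM in lung iECs, against 21.1, 21.7 and 23.5 CPM in lung fibroblasts, and 291 CPM in lung ECs. Vcam1, a leukocyte adhesion molecule, stood at 1154, 997 and 2172 CPM in lung iECs, against 619, 568 and 525 CPM in lung fibroblasts, and exceeded lung ECs (651 CPM, log2 difference 1.146 ± 0.275, edgeR adjusted p = 0.00364).

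Lung capillaries hold aerocytes, which face the air space, and general capillary cells. Of 16 aerocyte genes 4 were higher and 6 lower (median −0.12, which turns to 0.04 on library totals without TMM), and of 17 general capillary genes 8 and 5. The background was 25.9% higher and 24.7% lower. Ednrb, an endothelin receptor of aerocytes, stood at 30.2, 42.4 and 34.1 CPM in lung iECs, against 2.29, 5.32 and 3.88 CPM in lung fibroblasts, and Cyp4b1 averaged 2.67 CPM in lung iECs, 0.495 in lung fibroblasts and 73.3 in lung ECs. Car4, the carbonic anhydrase of these cells, was not called, at 0.354, 0.0461 and 3.50 CPM. Among general capillary genes Ptprb, Tek and Itga1 rose, but Gpihbp1, which carries lipoprotein lipase, fell and averaged 0.0778 CPM in lung iECs and 0.34 in lung fibroblasts, while Aplnr, the apelin receptor, was not called (0.0626 and 0.0602 CPM). Sema3c fell by 2.93 ± 0.16 on the log2 scale, and the chemokine Cxcl12 stood at 174, 131 and 147 CPM in lung iECs, against 544, 651 and 529 CPM in lung fibroblasts.

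Of 18 members of the VEGF and angiopoietin axis 8 were higher and 7 lower. The receptors Kdr, Flt4, Tie1 and Tek and the ligand Pgf rose, whereas Vegfa, Vegfb, Vegfc, Vegfd, Angpt1 and Angpt4 fell. Vegfd stood at 16.9, 21.7 and 6.51 CPM in lung iECs, against 418, 475 and 465 CPM in lung fibroblasts. Angpt1, the Tek agonist of perivascular cells, stood at 1.80, 1.93 and 1.59 CPM in lung iECs, against 13.9, 20.1 and 16.1 CPM in lung fibroblasts. Flt1, the decoy VEGF receptor, was not called (63.9 CPM in lung iECs, 62.2 in lung fibroblasts). Tip cell genes, which mark the leading cells of sprouts, were higher for 12 of 17 members and lower for 2, with Mcam at 168, 182 and 138 CPM in lung iECs, against 8.08, 4.70 and 7.72 CPM in lung fibroblasts. Igfbp3 stood at 1487, 1560.3 and 1912 CPM in lung iECs, against 461, 393 and 430.1 CPM in lung fibroblasts. Esm1 reached 11.9 CPM in lung iECs against 3.73 in lung fibroblasts and 171 in lung ECs. Of 28 genes of vessel tone and clotting 16 rose and 6 fell: Edn1, Ece1, which activates it, and Ptgs2 rose, while Ptgis, the prostacyclin synthase, fell to 79.5, 87.4 and 73.4 CPM in lung iECs, against 345, 271 and 300.0 CPM in lung fibroblasts, and Nt5e and Ptgs1 fell.

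Fibroblast genes were lower for 30 of 33 members and higher for 2 (median −1.89), and the depth of the fall differed widely between them. The dermatopontin gene Dpt stood at 0.0474, 0.043 and 0.0482 CPM in lung iECs, against 5.56, 6.04 and 4.65 CPM in lung fibroblasts. Lum, the proteoglycan lumican, stood at 0.664, 0.473 and 0.965 CPM in lung iECs, against 12.2, 17.2 and 13.4 CPM in lung fibroblasts. Both fell to levels under 1 CPM in lung iECs. Gas1, a hedgehog co-receptor, stood at 6.17, 5.97 and 2.94 CPM in lung iECs, against 62.7, 107 and 75.6 CPM in lung fibroblasts. Ly6a, the surface antigen Sca-1, stood at 34.5, 25.7 and 33.9 CPM in lung iECs, against 985, 782 and 779.5 CPM in lung fibroblasts, though its reads may be shared with related Ly6 genes. By contrast Pdgfra, the PDGF receptor of fibroblasts, stood at 258, 201 and 197 CPM in lung iECs, against 667, 1025 and 923 CPM in lung fibroblasts. Thy1 stood at 65.3, 53.8 and 33.3 CPM in lung iECs, against 136, 114 and 121 CPM in lung fibroblasts, smaller decreases than those 4 (log2 changes −1.995 ± 0.144 and −1.28 ± 0.163). Against lung ECs 19 of the 33 genes were still higher in lung iECs, among them Col1a1, and 7 were lower. The lung ECs held fibroblast transcripts too, with Col1a1 at 2742 CPM on average. The list held 3.68% of counts on average in lung iECs, 7.62% in lung fibroblasts and 3.04% in lung ECs. Vim, the intermediate filament vimentin, rose by 0.60 ± 0.0865. The other called increase, Fstl1, was lost without lung iEC replicate 3 or lung fibroblast replicate 3.

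Collagen genes held 3.09%, 2.97% and 2.35% of all counts in lung iECs, against 4.61%, 5.60% and 5.44% in lung fibroblasts. Lung iEC replicate 3 was the lowest of the 6, and without it the other iEC libraries were still below every fibroblast library. Of 34 tested chains 14 fell and 6 rose (median −0.46). The fibrillar chains fell: Col1a1 stood at 7002, 6515 and 5206 CPM in lung iECs, against 12813, 15361 and 15319.8 CPM in lung fibroblasts. Col1a2 stood at 6219, 5737 and 4718 CPM in lung iECs, against 11783, 14031 and 13452 CPM in lung fibroblasts. Col3a1 stood at 1189, 1082 and 681 CPM in lung iECs, against 9004, 11512 and 10514 CPM in lung fibroblasts. Log2 changes were −1.22 ± 0.114, −1.24 ± 0.101 and −3.39 ± 0.196 (edgeR adjusted p = 6.31e-08, 9.32e-09 and 4.12e-10), with the larger decrease for Col3a1. Col6a1 and Col6a2, chains of microfibrillar collagen VI, fell (log2 changes −1.89 ± 0.128 and −2.87 ± 0.144), and Col28a1 fell by 3.40 ± 0.268. Chains of basement membrane and vessel wall moved the other way: Col15a1 stood at 239, 212 and 112 CPM in lung iECs, against 33.9, 35.1 and 37.4 CPM in lung fibroblasts. Col18a1, the source of endostatin, stood at 507, 458 and 495 CPM in lung iECs, against 112, 131 and 112 CPM in lung fibroblasts, and Col4a1 rose by 0.44 ± 0.0901 while Col4a2 was not called (0.10 ± 0.0861).

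Of 48 proteoglycan and elastic fibre genes 31 fell and 8 rose (median −1.10). Elastin, Eln, stood at 43.5, 16.8 and 5.40 CPM in lung iECs, against 150.2, 218 and 189.8 CPM in lung fibroblasts. Efemp1, also known as fibulin 3, stood at 14.4, 19.4 and 14.6 CPM in lung iECs, against 247, 230.5 and 238 CPM in lung fibroblasts. Sparcl1 stood at 89.8, 42.0 and 25.3 CPM in lung iECs, against 1399, 1991 and 1594 CPM in lung fibroblasts. The small proteoglycans Dcn, Bgn, Lum, Fmod, Ogn, Prelp and Podn all fell, with Bgn at 2179.8 ± 295 CPM in lung iECs and 6873 ± 557 CPM in lung fibroblasts (SD, n = 3 each). Of the lysyl oxidases Lox, Loxl1 and Loxl3 fell, whereas Loxl2 and Loxl4 were not called. The members that rose included Fbln5, Ltbp4, which binds fibulin 5 and latent TGF-beta, at 472, 471 and 447 CPM in lung iECs, against 81.4, 101 and 94.9 CPM in lung fibroblasts, the thrombospondins Thbs1 and Thbs2, and tenascin C, Tnc. Of 21 basement membrane genes 9 were higher and 9 lower. Lama3 stood at 12.2, 13.2 and 17.9 CPM in lung iECs, against 0.229, 0.24 and 0.226 CPM in lung fibroblasts. Lama4, the laminin chain of vessels, stood at 687, 693 and 926 CPM in lung iECs, against 342, 419 and 389.8 CPM in lung fibroblasts, while Nid2 (nidogen 2) stood at 60.5, 72.1 and 49.3 CPM in lung iECs, against 379, 560.1 and 477 CPM in lung fibroblasts and Lama5 fell by 1.43 ± 0.195.

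Matrix proteases and their inhibitors were lower for 16 of 40 members and higher for 9 (background 24.7% and 25.9%). Mmp9, a gelatinase, stood at 108, 88.3 and 141 CPM in lung iECs, against 3.09, 3.98 and 2.80 CPM in lung fibroblasts, whereas Mmp3, stromelysin 1, stood at 21.1, 17.6 and 38.1 CPM in lung iECs, against 565, 603 and 544 CPM in lung fibroblasts. Mmp2 stood at 118, 103 and 132 CPM in lung iECs, against 541, 762 and 639 CPM in lung fibroblasts. Adamts2, which trims procollagen, stood at 192, 160.4 and 119 CPM in lung iECs, against 737, 872 and 815 CPM in lung fibroblasts. The inhibitors Timp1 and Timp2 fell (log2 changes −1.67 ± 0.221 and −1.54 ± 0.0946). Integrin genes were higher for 10 of 21 members and lower for 5, or 3 without lung fibroblast replicate 2 or 3. Itgb8, which releases active TGF-beta, stood at 34.4, 46.3 and 36.2 CPM in lung iECs, against 3.84, 6.995 and 5.15 CPM in lung fibroblasts, Itga4 rose by 2.67 ± 0.151 and Itgav by 1.44 ± 0.104, and the collagen-binding Itga11 fell to 12.1, 11.04 and 7.77 CPM in lung iECs, against 38.1, 44.3 and 45.9 CPM in lung fibroblasts.

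Genes of protein folding and collagen processing in the ER were lower for 25 of 29 members and higher for none, with a median of −0.59. They held 1.16%, 1.12% and 1.14% of counts in lung iECs, against 1.67%, 1.48% and 1.54% in lung fibroblasts, without overlap. P4hb (protein disulfide isomerase and a subunit of prolyl 4-hydroxylase) stood at 919, 899.7 and 916 CPM in lung iECs, against 1910.5, 1723 and 1749 CPM in lung fibroblasts. The catalytic prolyl hydroxylase subunits P4ha1, P4ha2 and P4ha3 fell (log2 changes −0.76 ± 0.0759, −1.07 ± 0.127 and −2.31 ± 0.172), and the lysyl hydroxylases Plod1 and Plod2 (log2 changes −1.05 ± 0.0776 and −0.96 ± 0.0831). Serpinh1, the collagen chaperone HSP47, stood at 1263, 1238 and 1177 CPM in lung iECs, against 1827, 1677 and 1721 CPM in lung fibroblasts. Among general chaperones Hspa5 (BiP) stood at 1087, 1019 and 1222 CPM in lung iECs, against 1649, 1394 and 1468 CPM in lung fibroblasts. Calr (calreticulin) stood at 1030.4, 945 and 1061 CPM in lung iECs, against 1813, 1548 and 1598 CPM in lung fibroblasts. The 4 members that were not called were P3h1, Fkbp10, Atf4 and Creld2. The response was more negative in the lung than in the heart for 22 of the 29 and less negative for none in the test of the difference, where 12.6% of all genes were called in each direction (25.2% in all). The heart median was 0.05. On average the list held 1.56% of counts in lung fibroblasts and 1.09% in heart fibroblasts, and 1.14% in lung iECs and 1.29% in heart iECs.

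Glycolytic and hypoxia-induced genes were lower for 22 of 31 members and higher for none (median −0.64). Aldoa, an aldolase, stood at 911, 842 and 994 CPM in lung iECs, against 1581, 1203 and 1324 CPM in lung fibroblasts. Gpi1, glucose-6-phosphate isomerase, stood at 464, 453 and 469 CPM in lung iECs, against 969, 809 and 854 CPM in lung fibroblasts. Tpi1 stood at 331, 292 and 360.0 CPM in lung iECs, against 639.7, 493 and 517 CPM in lung fibroblasts. The hypoxia targets Bnip3 and Ndrg1 stood at 103, 79.1 and 110.2 CPM in lung iECs, against 255, 216 and 220.0 CPM in lung fibroblasts for Bnip3 and 28.6, 23.2 and 31.1 CPM in lung iECs, against 96.0, 93.9 and 94.3 CPM in lung fibroblasts for Ndrg1. The groups did not overlap for any of these 5 genes. The glucose transporter Slc2a1, Hk2, Pgk1 and Pfkfb3 were not called, at −0.20 ± 0.146, 0.02 ± 0.146, −0.06 ± 0.148 and 0.19 ± 0.246. On library totals without TMM 20 were lower and 1 was higher.

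Genes of cholesterol and fatty acid synthesis were lower for 23 of 31 members (median −0.53). Fdft1 (squalene synthase) stood at 59.8, 52.2 and 51.1 CPM in lung iECs, against 122, 93.2 and 109 CPM in lung fibroblasts. Idi1 stood at 64.7, 56.6 and 50.8 CPM in lung iECs, against 113, 91.0 and 107 CPM in lung fibroblasts. Scd1, a fatty acid desaturase, stood at 139, 137 and 106 CPM in lung iECs, against 242, 291 and 283 CPM in lung fibroblasts. The called increase, Fasn at 0.26 ± 0.102, was lost when single libraries were left out. The heart cells had a lower median, −1.28, and the test of the difference called 21 of the 31 genes less negative in the lung and 0 more negative.

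Ribosomal protein genes were lower for 75 of 82 members and higher for none, with a median of −0.63. They held 3.65%, 3.62% and 3.59% of counts in lung iECs, against 6.20%, 4.25% and 4.55% in lung fibroblasts. Fibroblast replicate 1 had by far the highest share, and without it the median was −0.44, with 73 genes lower and 3 higher. Rpl12 stood at 29.3, 24.4 and 30.1 CPM in lung iECs, against 76.0, 46.2 and 47.1 CPM in lung fibroblasts. Rpl10a stood at 358, 324 and 317 CPM in lung iECs, against 928, 582 and 657 CPM in lung fibroblasts. The heart median was −0.21, and 45 of the 82 genes had the more negative response in the lung. Many processed pseudogenes resemble these genes, so their reads may be shared.

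Of 25 mitosis genes 4 were higher and 0 lower, with a median of 0.09, and of 28 DNA replication genes 8 were higher and 1 lower (background 25.9% and 24.7%). Without lung iEC replicate 3, 7 mitosis genes were higher. Higher DNA replication genes numbered 5 without lung fibroblast replicate 2, 12 without both libraries that stand apart and 14 on library totals without TMM, and the count of lower ones was 0 to 2 with a library left out. Mki67, the proliferation antigen Ki-67, stood at 70.7, 59.6 and 45.5 CPM in lung iECs, against 50.2, 52.2 and 53.3 CPM in lung fibroblasts, overlapping and not called (0.17 ± 0.139, edgeR adjusted p = 0.318). Cdc20, an activator of the anaphase-promoting complex, was among the called genes, at 42.3, 48.3 and 42.0 CPM in lung iECs, against 21.5, 16.8 and 17.5 CPM in lung fibroblasts. In the heart the mitosis median was 2.21, and the test of the difference called 24 of the 25 genes smaller in the lung. Mitosis genes held 0.0751% of counts on average in lung iECs and 0.0588% in lung fibroblasts. In heart iECs they held 0.0339% and in heart fibroblasts 0.00746%, so the larger heart change did not mean a higher level in heart iECs. Of 24 p53 targets and CDK inhibitors 15 were higher and 3 lower: Mdm2 stood at 239, 257 and 275 CPM in lung iECs, against 163, 147 and 146 CPM in lung fibroblasts. Cdkn1a, the inhibitor p21, stood at 402, 412 and 458 CPM in lung iECs, against 321, 287 and 304 CPM in lung fibroblasts, while Cdkn1b, the inhibitor p27, fell by 0.83 ± 0.0984.

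**Figure D3:**
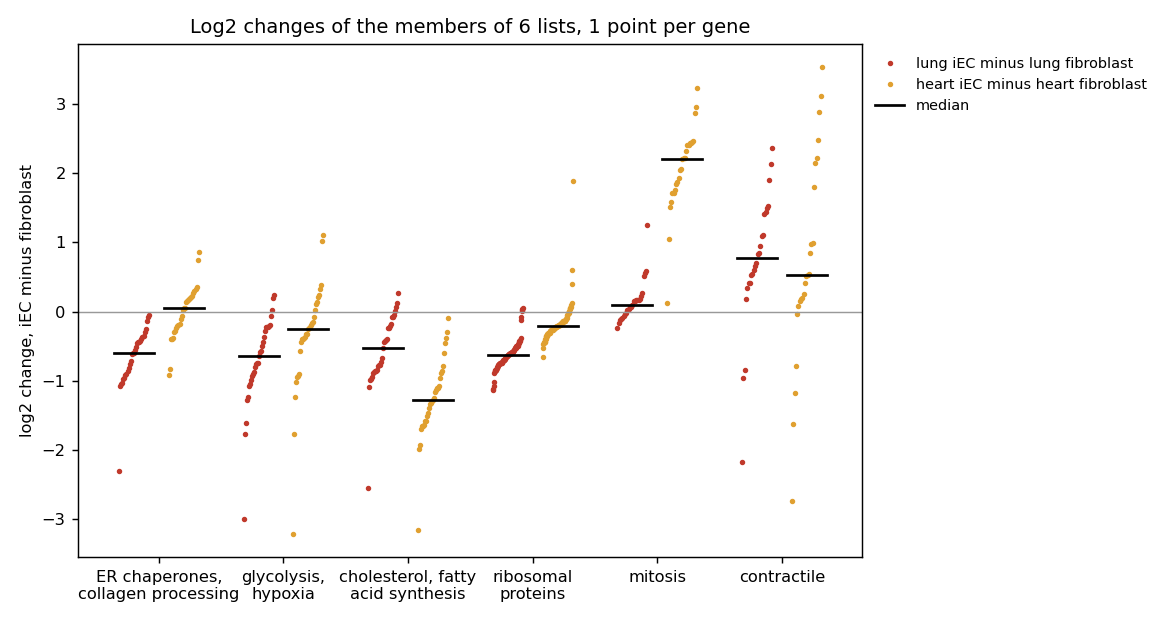
Log2 change of iECs minus fibroblasts for each tested member of lists of ER, glycolysis, cholesterol, ribosomal, mitosis and contractile genes, 1 point per gene sorted by value, for the lung (red) beside the heart (ochre), with medians as black bars. The lung medians of the first 4 lists lie below 0, from −0.53 to −0.64, and the mitosis median is near 0 in the lung and above 2 in the heart. Mitosis genes still held less of all counts in heart iECs (0.0339%) than in lung iECs (0.0751%).

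Contractile genes of smooth muscle and myofibroblasts were higher for 19 of 24 members and lower for 3 (median 0.77). The lower count was 1 without lung iEC replicate 3, and 1 without lung fibroblast replicate 2. Acta2 stood at 2139, 2439 and 1949 CPM in lung iECs, against 594, 441 and 457 CPM in lung fibroblasts. Cnn1 (calponin) stood at 91.8, 107 and 64.8 CPM in lung iECs, against 19.8, 15.3 and 15.9 CPM in lung fibroblasts. Tagln (SM22) stood at 1081, 1173 and 1065 CPM in lung iECs, against 488, 329 and 358 CPM in lung fibroblasts. All 3 were without overlap, and Acta2 and Cnn1 exceeded lung ECs (758 and 24.1 CPM). Des, the muscle filament desmin, fell to 21.1, 17.4 and 8.93 CPM in lung iECs, against 89.0, 53.9 and 70.8 CPM in lung fibroblasts. Targets of the Hippo and SRF pathways were higher for 13 of 26 members and lower for 8, with the matricellular genes Ccn1 and Ccn2 higher (log2 changes 1.06 ± 0.0824 and 1.21 ± 0.118) and the immediate early genes Fos and Junb lower (log2 changes −0.93 ± 0.142 and −0.59 ± 0.124). Markers of pericytes and smooth muscle did not move as one: of 19 10 were higher, such as Rgs5 (3.20 CPM in lung iECs, 0.724 in lung fibroblasts), and 8 lower, such as Abcc9 (0.191 and 4.31 CPM) and Kcnj8 (0.17 and 3.71 CPM).

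Of 53 BMP and TGF-beta genes 18 were higher and 17 lower (background 25.9% and 24.7%). Chrdl1, a secreted BMP antagonist, stood at 35.6, 41.1 and 44.5 CPM in lung iECs, against 0.859, 1.68 and 1.17 CPM in lung fibroblasts, and at 0.0788 CPM in lung ECs. The ligands Bmp4, Bmp6 and Tgfb2 rose by 2.52 ± 0.112, 2.50 ± 0.141 and 2.67 ± 0.123 on the log2 scale, as did the endothelial BMP receptor Acvrl1 by 1.03 ± 0.0617. Inhbb, Gdf10, Bmper and the co-receptor Tgfbr3 fell, with Tgfbr3 at 77.1, 72.4 and 85.4 CPM in lung iECs, against 289, 442 and 373 CPM in lung fibroblasts. Of 44 Wnt genes 11 were higher and 15 lower (same background). Frzb, a secreted Wnt inhibitor, stood at 273, 307 and 267 CPM in lung iECs, against 28.3, 26.7 and 27.8 CPM in lung fibroblasts. Axin2, a target of canonical Wnt signalling, stood at 10.4, 14.1 and 8.30 CPM in lung iECs, against 0.974, 1.05 and 1.76 CPM in lung fibroblasts. Wnt5a stood at 146, 172 and 137 CPM in lung iECs, against 24.0, 33.7 and 34.8 CPM in lung fibroblasts. Sfrp1, another secreted inhibitor, stood at 50.3, 38.7 and 36.8 CPM in lung iECs, against 419, 571 and 477 CPM in lung fibroblasts. Fzd1 stood at 52.8, 53.9 and 43.6 CPM in lung iECs, against 221, 269 and 248 CPM in lung fibroblasts, both lower in lung iECs.

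Of 45 hedgehog, FGF, PDGF and IGF genes 20 were higher and 16 lower. Pdgfb, the ligand by which endothelium recruits pericytes, stood at 29.4, 25.3 and 24.2 CPM in lung iECs, against 0.286, 0.479 and 0.226 CPM in lung fibroblasts. Pdgfd stood at 179, 196 and 142 CPM in lung iECs, against 14.4, 15.1 and 13.8 CPM in lung fibroblasts, while the receptors Pdgfra and Pdgfrb fell, with Pdgfrb at 249.8, 219 and 157 CPM in lung iECs, against 463, 609 and 589 CPM in lung fibroblasts. Fgf10, a mesenchymal growth factor of the lung epithelium, stood at 1.80, 1.38 and 1.35 CPM in lung iECs, against 18.96, 23.0 and 21.6 CPM in lung fibroblasts. Hgf stood at 2.99, 2.58 and 2.89 CPM in lung iECs, against 11.9, 26.2 and 20.0 CPM in lung fibroblasts. Fgfr2 rose to 53.6, 55.3 and 52.2 CPM in lung iECs, against 9.45, 10.01 and 11.2 CPM in lung fibroblasts. Igfbp4, an IGF-binding protein, stood at 69.5, 78.5 and 49.8 CPM in lung iECs, against 781, 931 and 820.0 CPM in lung fibroblasts, and Igfbp6 fell by 3.23 ± 0.288.

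Guidance genes, which steer axons and vessel sprouts, were higher for 25 of 60 members and lower for 20. Robo2, a Slit receptor, stood at 67.1, 81.6 and 76.2 CPM in lung iECs, against 1.37, 0.719 and 0.767 CPM in lung fibroblasts, with 5.92 CPM in lung ECs. Plxna2 stood at 151, 171 and 172 CPM in lung iECs, against 15.5, 24.6 and 21.4 CPM in lung fibroblasts. Plxnd1, the endothelial semaphorin receptor, and Efnb2, the arterial ephrin, rose by 2.24 ± 0.129 and 1.71 ± 0.0967. Epha3, Ephb3, Sema3b and Sema5a fell, with Ephb2 at 43.6, 48.8 and 28.8 CPM in lung iECs, against 120.3, 147 and 154 CPM in lung fibroblasts. Of the 19 tested semaphorins 6 were higher and 10 lower. Retinoic acid genes divided too, with 6 of 17 higher and 8 lower: Lrat, which stores retinol as ester, stood at 29.9, 20.0 and 21.6 CPM in lung iECs, against 0, 0.623 and 0.181 CPM in lung fibroblasts and had no count in lung ECs, Aldh1a3 stood at 24.0, 26.0 and 25.1 CPM in lung iECs, against 0.745, 0.814 and 1.31 CPM in lung fibroblasts, and Aldh1a1 and Aldh1a2, other enzymes of retinoic acid synthesis, fell (log2 changes −2.68 ± 0.27 and −1.505 ± 0.154).

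Transcription factors of the lung mesenchyme mostly did not pass the test. Of 32 tested 19 were not called, 11 were lower and 2 higher (median −0.12, or 0.05 on library totals without TMM, with 7 lower and 6 higher). The higher count was 1 without lung iEC replicate 3 or lung fibroblast replicate 1. Foxf1, a forkhead factor of lung mesenchyme and capillaries, was not called, at 31.3, 29.9 and 42.0 CPM in lung iECs, against 37.9, 35.5 and 39.9 CPM in lung fibroblasts. Tbx4, a lung mesenchyme factor whose call was lost when single libraries were left out, averaged 51.2 ± 4.90 CPM in lung iECs and 69.0 ± 4.23 CPM in lung fibroblasts (SD, n = 3 each). Tcf21, of lipofibroblasts, fell to 8.06, 6.79 and 5.50 CPM in lung iECs, against 17.4, 19.8 and 15.8 CPM in lung fibroblasts, and Ebf1 fell by 1.82 ± 0.118. Of 23 Hox genes, which record position in the body, 1 was higher (Hoxb8, 1.27 ± 0.197) and 3 were lower, against 50.6% of all genes called. Low counts limit this test, as 7 of the 23 averaged under 1 CPM in both groups. The family held only 0.0207% of counts in lung iECs and 0.0191% in lung fibroblasts. Without lung fibroblast replicate 1, 2 Hox genes were higher, and with both libraries that stand apart left out 1 was lower. Of 22 mesenchymal and EMT factors 7 were higher and 10 lower. Prrx1 stood at 161, 147 and 140.0 CPM in lung iECs, against 260.5, 323 and 309.5 CPM in lung fibroblasts. Prrx2 stood at 0.901, 0.945 and 1.11 CPM in lung iECs, against 10.996, 10.3 and 10.7 CPM in lung fibroblasts. Snai1 stood at 18.2, 20.0 and 20.9 CPM in lung iECs, against 60.9, 50.7 and 51.8 CPM in lung fibroblasts, all lower, whereas Zeb1 rose by 0.54 ± 0.101 and Zeb2 and Twist1 were not called.

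In other transcription factor families, the SoxD and SoxB genes Sox6, Sox13 and Sox21 rose along with Sox17: Sox6 stood at 67.2, 74.7 and 52.5 CPM in lung iECs, against 0.458, 0.527 and 1.17 CPM in lung fibroblasts. Sox13 stood at 24.9, 28.6 and 23.6 CPM in lung iECs, against 2.69, 3.02 and 2.30 CPM in lung fibroblasts. Sox9, the cartilage factor, fell to 3.46, 3.35 and 1.54 CPM in lung iECs, against 20.96, 21.8 and 20.7 CPM in lung fibroblasts. Of 14 Krüppel-like genes 2 were higher and 8 lower, and Klf15 showed the largest decrease (−2.03 ± 0.11). Nr3c2, the mineralocorticoid receptor, stood at 7.35, 9.07 and 7.58 CPM in lung iECs, against 0.458, 0.767 and 0.587 CPM in lung fibroblasts, and Gata3 rose by 2.67 ± 0.254.

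Of 20 complement genes tested 10 fell and 8 rose. Among those that fell C3, the central component, stood at 262, 109.6 and 370.2 CPM in lung iECs, against 2144, 3245 and 2183 CPM in lung fibroblasts. C4b stood at 19.1, 13.2 and 13.2 CPM in lung iECs, against 344, 530.2 and 421 CPM in lung fibroblasts. Serping1, the C1 inhibitor, stood at 171, 139 and 195 CPM in lung iECs, against 943, 1019 and 875 CPM in lung fibroblasts. C4b has a close paralog whose reads may be shared. The genes that rose included C1qa, C1qb, C1qc, C3ar1 and C5ar1, which macrophages express, by 1.38 ± 0.21 (C1qb) to 2.16 ± 0.174 (C5ar1) on the log2 scale.

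Macrophage markers were higher for 26 of 29 members and lower for 1 (median 1.51), and 23 were lower in lung iECs than in lung ECs. The list held 0.63%, 0.487% and 0.748% of counts in lung iECs, against 0.241%, 0.21% and 0.201% in lung fibroblasts, and 1.501% on average in lung ECs, so the 3 lung groups all contained such transcripts. No member was at 0 in either group. Csf1r, the macrophage growth factor receptor, stood at 82.2, 69.6 and 71.5 CPM in lung iECs, against 24.4, 24.3 and 20.4 CPM in lung fibroblasts. Adgre1 (F4/80) stood at 117, 42.4 and 173 CPM in lung iECs, against 33.8, 36.2 and 24.5 CPM in lung fibroblasts. Marco, a scavenger receptor of alveolar macrophages, stood at 516, 156 and 1053 CPM in lung iECs, against 133, 96.3 and 80.5 CPM in lung fibroblasts. The rises of Lyz2, of the C1q genes, of Itgam, Itgb2 and Cx3cr1 and of Mmp12 and Ccl6 moved with this list, and its part in them was not tested.

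Chemokines held 0.128%, 0.0842% and 0.325% of counts in lung iECs, against 0.129%, 0.112% and 0.0936% in lung fibroblasts, and lung iEC replicate 3 was the highest of all. Of 28 tested 8 were higher and 8 lower, near the background of 25.9% and 24.7%. The higher count was 4 without lung iEC replicate 3 or lung fibroblast replicate 3, and 12 without lung iEC replicate 2. The lower count was 5 without lung fibroblast replicate 1. Ccl6 and Ccl9, chemokines of myeloid cells, rose with each library left out, with Ccl9 at 113, 66.2 and 231 CPM in lung iECs, against 49.1, 40.1 and 38.8 CPM in lung fibroblasts, as did the eotaxin Ccl11 at 10.3, 11.1 and 24.1 CPM in lung iECs, against 1.37, 1.25 and 1.76 CPM in lung fibroblasts. Ccl2 reached 293, 115 and 1004 CPM in lung iECs, against 236, 132 and 86.4 CPM in lung fibroblasts, and was not called. Acute-phase and inflammatory genes numbered 5 higher and 7 lower of 26 (same background). The higher count was 2 without lung iEC replicate 3 or lung fibroblast replicate 3, 3 without lung fibroblast replicate 2, 8 without lung iEC replicate 1 and 10 without lung iEC replicate 2. Interferon-stimulated genes were lower for 9 of 30 members and higher for 1 (same background). The lower count was 15 without lung iEC replicate 3, 5 without lung fibroblast replicate 1, and 4 without lung iEC replicate 1 or 2. They held 0.309%, 0.188% and 0.529% of counts in lung iECs, against 0.668%, 0.524% and 0.564% in lung fibroblasts. Irf7, the master factor of interferon responses, stood at 93.8, 42.8 and 171 CPM in lung iECs, against 537, 439 and 460.0 CPM in lung fibroblasts and fell by 2.22 ± 0.572 (edgeR adjusted p = 0.00563). Of 19 antigen presentation genes 5 were higher and 4 lower, counts near the same background. The class I genes H2-K1 and H2-D1 fell (log2 changes −1.11 ± 0.307 and −0.998 ± 0.194) and B2m fell by 0.82 ± 0.202. The class II gene H2-Aa stood at 5.12, 5.46 and 7.04 CPM in lung iECs, against 0.0573, 0.144 and 0 CPM in lung fibroblasts. The class II partner H2-Ab1 rose by 0.85 ± 0.269, and Cd74, the invariant chain, was not called (−0.01 ± 0.621). H2 genes can share reads with one another. Without lung iEC replicate 3 the counts were 4 higher and 10 lower, and the median log2 change of the list was −0.87 in place of −0.35.

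**Figure D4:**
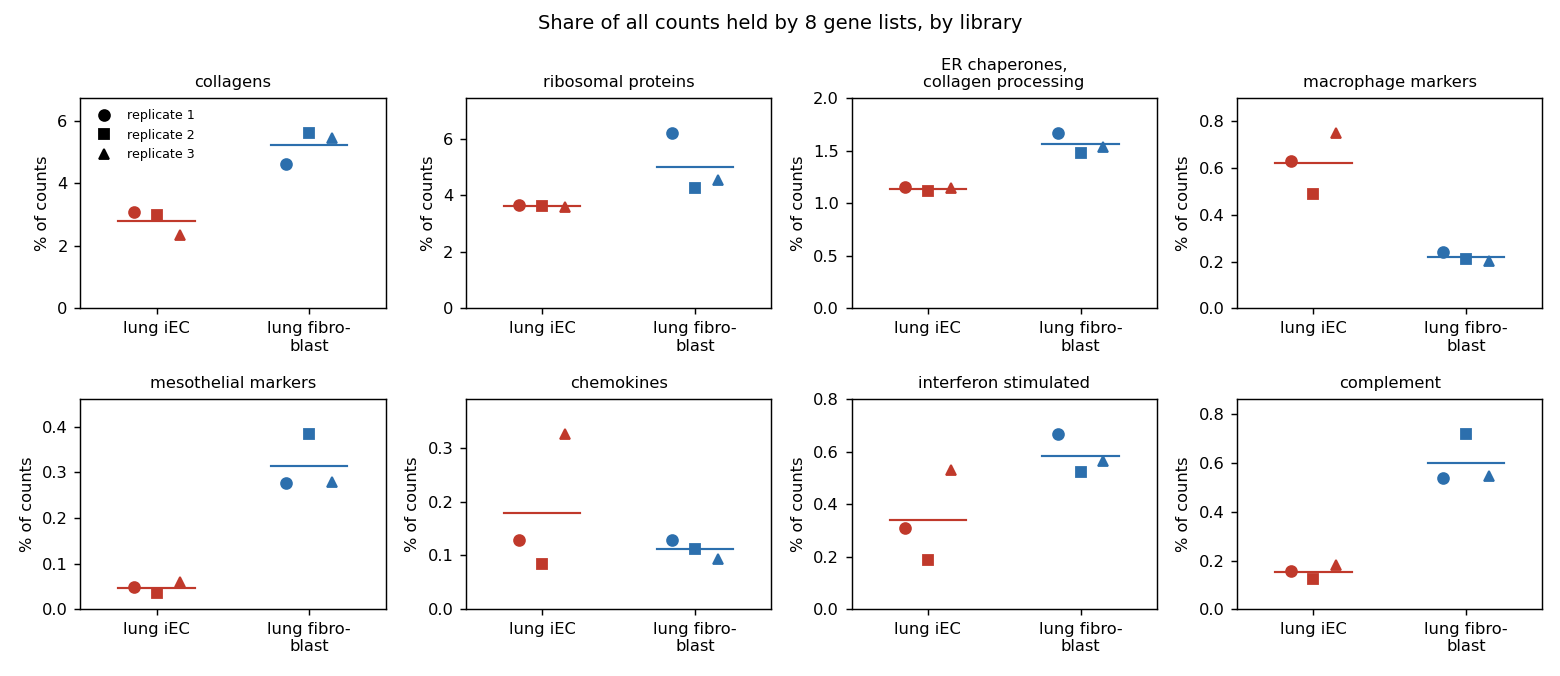
Share of all counts (%) held by 8 gene lists, 1 point per library (circle, square and triangle for replicates 1, 2 and 3), lung iECs in red on the left of each panel and lung fibroblasts in blue on the right, with means as bars. Collagen, ER, complement and mesothelial shares are lower and macrophage shares higher in every lung iEC library, and chemokine and interferon shares spread widely among the iEC libraries.

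Mesothelial markers, genes of the pleural lining, were lower for 12 of 17 members and higher for 2 (median −3.35). The list held 0.0483%, 0.0354% and 0.0595% of counts in lung iECs, against 0.277%, 0.384% and 0.279% in lung fibroblasts. Its most abundant member was C3, and without C3 the means were 0.0207% in lung iECs and 0.0659% in lung fibroblasts. Msln, mesothelin, stood at 3.13, 4.04 and 2.99 CPM in lung iECs, against 133.9, 118 and 122 CPM in lung fibroblasts. Upk3b stood at 0.474, 1.72 and 0.724 CPM in lung iECs, against 32.1, 43.8 and 36.5 CPM in lung fibroblasts. Lrrn4 stood at 0.427, 0.902 and 0.241 CPM in lung iECs, against 17.5, 30.3 and 23.0 CPM in lung fibroblasts, without overlap. The keratins Krt8 and Krt18, shared by mesothelium and epithelium, fell (log2 changes −2.95 ± 0.288 and −2.11 ± 0.3), and C3, Efemp1 and Aldh1a2, which stromal cells also express, moved with this list. Its part in those changes was not tested. Epithelial markers were near 0, with 0.00241%, 0.00277% and 0.00275% of counts in lung iECs and 0.00368%, 0.00285% and 0.00331% in lung fibroblasts, and the defining Epcam and Cdh1 averaged 0.269 and 0.775 CPM in lung iECs and 0.106 and 0.632 CPM in lung fibroblasts. Ager, a gene of alveolar type 1 cells, was higher all the same, at 9.96, 10.8 and 14.0 CPM in lung iECs, against 0.401, 0.671 and 0.632 CPM in lung fibroblasts.

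**Figure D5:**
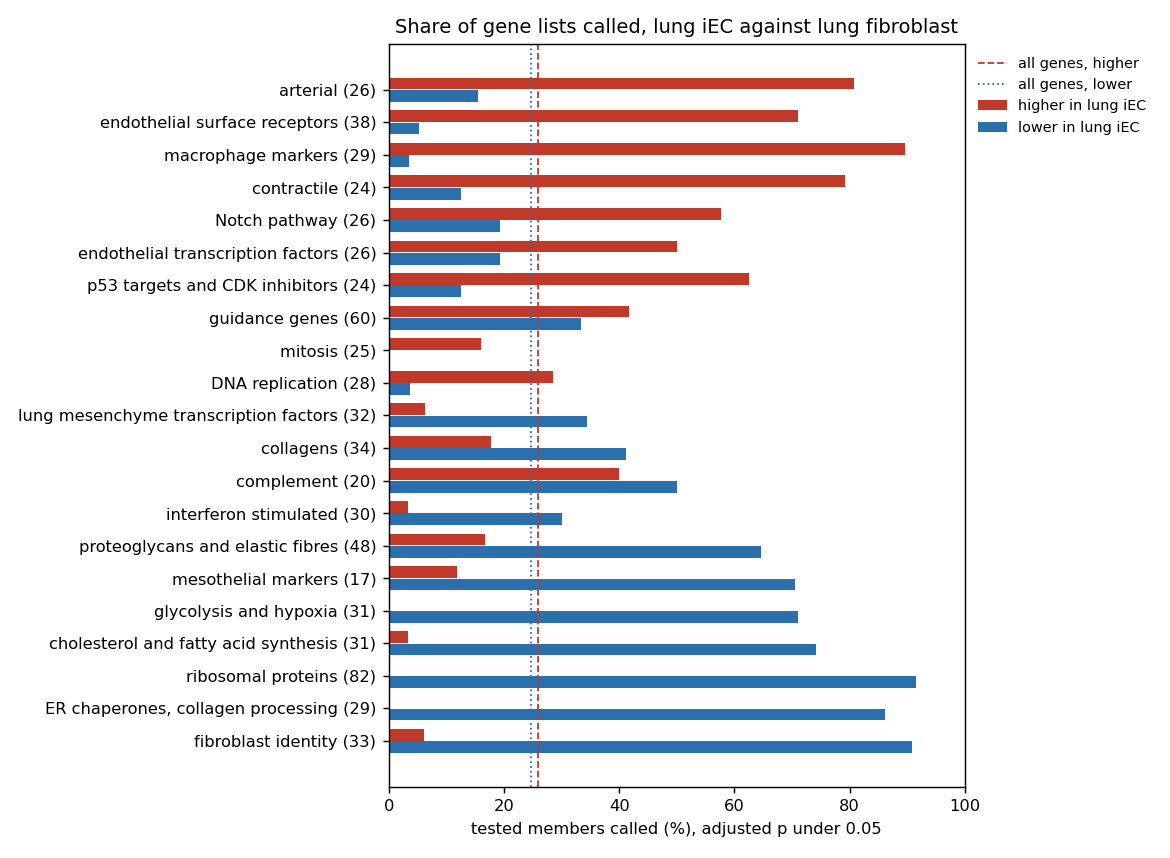
Percent of the tested members of each list called higher (red) or lower (blue) for lung iECs over lung fibroblasts, with the number tested after each name and the shares of all genes as a dashed line (25.9% higher) and a dotted line (24.7% lower). Arterial, receptor, macrophage and contractile lists reach far past the dashed line, and fibroblast, ER, ribosomal, cholesterol and glycolysis lists past the dotted line.

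The response was set against that of the heart by the difference of the log2 changes of iECs over fibroblasts, which called 3744 genes (25.2%), 1873 with the larger value in the lung and 1871 with the smaller (12.6% each). Among surface receptors 27 of 38 had the larger value in the lung and 2 the smaller, and among arterial genes 8 the larger and 12 the smaller of 26. The surface receptors held 0.439% of counts on average in lung iECs and 0.464% in heart iECs. In lung fibroblasts they held 0.0774% and in heart fibroblasts 0.152%, so the iEC shares were close and the fibroblast share was lower in the lung. The levels behind Icam2, an endothelial adhesion molecule, were 8.83 CPM in lung iECs and 0.102 in lung fibroblasts, and 36.9 in heart iECs and 3.54 in heart fibroblasts. Gja5 had the smaller value in the lung (−2.12 ± 0.599, edgeR adjusted p = 0.0161), where its iEC level was 103 CPM against 374 in heart iECs. Among fibroblast genes 17 of 33 had the more negative value in the lung and 3 the less negative, and among proteoglycan and elastic fibre genes 23 and 12 of 48. Col1a1 averaged 6241 CPM in lung iECs and 14498 in lung fibroblasts, but 8853 in heart iECs and 8517 in heart fibroblasts.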

How the data were processed

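RNA was sequenced by the mRNA library method of a commercial provider from 18 libraries of cultured mouse cells, 6 groups of 3. The authors deposited estimated counts per gene, all whole numbers in the file as deposited. Per the submitters' processing notes, Salmon, DESeq2 and mm10 were used. Versions, the annotation and the way transcripts were summed to genes are not given in the sources used here. Symbols and positions came from GENCODE release M21 (35422 of 35727 gene IDs matched), promoters from RefSeq (GRCm38.p6).

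All 18 libraries entered a single model in edgeR 4.0.16 (R 4.3.3): TMM scaling, the standard filter on low counts over the 6 groups (14864 genes and 99.97% of counts kept), robust quasi-likelihood fits with 12 residual degrees of freedom, and Benjamini-Hochberg adjustment over all 14864 genes, called under 0.05. Standard errors are the log2 change over the root of the F statistic. A prior count of 0.125 enters fitted log2 changes, so a gene at no count in a group has no stable fold. For such genes a bound was taken from 3 counts summed over that group's libraries. Shares of counts use raw totals.

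Genes were named by rule: Sox17 and Erg, then per direction the 12 largest log2 changes among calls reaching 10 CPM where higher, with no overlap, the call kept with each library left out and no clone, pseudogene, predicted or immunoglobulin symbol, then the 6 largest differences in CPM, up to 8 genes with no count in a group, and up to 6 called members per direction of each list or symbol family that reached 5 CPM where higher. Other members are given as values. The members and lists were chosen with earlier results of these data known.

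Alternatives were DESeq2 1.42.0, other scalings and filters, a fit of the compared groups alone, a replicate block, a test against a log2 change of 1, and leaving out each library. Library totals without TMM, and leaving out both libraries that stand apart, were chosen after seeing the data. Reads could be shared between near-identical genes, and whether counting used the strand is not given in the sources used here. Some genes are not reported here.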

Additional observations from a re-analysis of the deposited data

Results flagged for a closer look

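The results below had a different response in the lung than in the heart, by edgeR's test of the difference of the log2 changes of iECs over fibroblasts. Over all genes 1873 had the larger value in the lung and 1871 the smaller.

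Sox17 differed by 3.35 (adjusted p = 9.17e-06), with 475 CPM in lung iECs and 0.126 in lung fibroblasts, and 466 in heart iECs and 1.37 in heart fibroblasts. Erg differed by 3.88 (adjusted p = 2.18e-07), with 1034 CPM in lung iECs and 0.544 in lung fibroblasts, and 1024 in heart iECs and 8.25 in heart fibroblasts. The iEC levels of both were close in the organs, and the fibroblast levels were lower in the lung. Those lung fibroblast levels rest on few counts, above all for Sox17, at 0.0573, 0.0958 and 0.226 CPM by library. The size of its difference is thus uncertain. Slc35f1 differed by 4.08 with a single count behind its lung fibroblast level, so this value has no stable size. Among abundant genes that rose, Lyz2 differed by 0.78 and Ctsd by 0.81, and Thbs1 by −0.50. Macrophage markers moved with Lyz2, and their part was not tested.

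Of the genes that fell, the fibrillar collagens Col3a1, Col1a1 and Col1a2 differed by −1.54, −1.27 and −0.93, Lox by −2.21 and Mgp by −3.06. Col3a1 averaged 984 CPM in lung iECs and 10343 in lung fibroblasts, and 2451 in heart iECs and 8856 in heart fibroblasts. Mfap4 differed by −2.31, Sned1 by −2.97, Adamtsl2 by −2.42, Prg4 by −1.52 and Galnt15 by −4.02, all more negative in the lung. Except for Sned1 (2.61 CPM), their lung iEC means were near the floor, at 0.172 (Adamtsl2) to 0.593 CPM (Galnt15). Fibroblast means were higher in the heart than in the lung for Adamtsl2 (302 against 14.5 CPM), Mfap4 (387 against 87.8) and Prg4 (122 against 31.0). They were lower in the heart for Galnt15 (55.5 against 84.0 CPM) and Sned1 (29.0 against 153). Fxyd1 differed by −2.14, Plin4 by −1.47 and Serpina3m, whose reads may be shared with paralogs, by −2.29. Their lung iEC means were near the floor too, at 0.234, 0.256 and 0.221 CPM.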

How the results depend on the processing

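Of 652 named genes called, none reversed direction under an alternative in which it was tested. They were chosen because they were called in these same libraries, so reversals were unlikely from the outset. Of them 78 lost the call under at least 1 alternative other than the test against a log2 change of 1, and 296 under that test. That test left 1806 genes for lung iECs against lung fibroblasts (1109 higher, 697 lower), 1394 against lung ECs (696 higher, 698 lower) and 592 for the lung response minus the heart response (330 with the larger value in the lung, 262 with the smaller), since it calls only changes whose size exceeds 1 on the log2 scale. With a library left out the counts were 6858 to 7517 (3471 to 3844 higher, 3319 to 3673 lower) against lung fibroblasts, 5677 to 6859 (2805 to 3350 higher, 2849 to 3509 lower) against lung ECs, and 3202 to 3983 (1591 to 1930, 1597 to 2053) for lung minus heart. DESeq2 called 7749 genes (4144 higher, 3605 lower), and a fit of the compared groups alone 6027.

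Samples with the same replicate number did not deviate together (r = −0.05, 0.05 and −0.14 between lung iECs and lung fibroblasts). Deviations from the mean of only 3 libraries cannot decide whether the numbers pair them, and the labels do not say. With a replicate block 7354 genes were called (3776 higher, 3578 lower), and 10 named genes lost the call. Of 188 list counts, 136 moved past 1.5 times under the test against a log2 change of 1, 21 without both libraries that stand apart, and 29 without TMM. Of 94 list shares, 62 moved without their most abundant member. With 3 libraries a group, small counts in lists rest on few genes.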
